A study of Mus musculus with 24 samples.

Results

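The genes described here are the mouse amino acid transporters of the solute carrier families Slc1, Slc3, Slc6, Slc7, Slc36, Slc38 and Slc43. They were taken by symbol, as every gene of these families in the deposited tables other than Slc7a11, which gave 58 genes of 23329. RNA sequencing had been run on 24 libraries from the colon of C57Bl/6 mice, in 6 groups of 4. The controls carried VilCre, a Cre recombinase under the villin promoter, which is active in intestinal epithelium. The other genotype, VilCre-CMVcaNrf2, carried in addition caNrf2, a constitutively active form of the transcription factor Nrf2, with expression set by Cre and so by the villin promoter. Epithelial cells were taken from untreated mice of both genotypes, and pieces of whole colon wall from mice of both genotypes, untreated or given Dextran Sulfate Sodium (DSS), which damages the colon epithelium and causes colitis. All animals with the transgene also carried VilCre, epithelial cells were not sequenced after DSS, and age, DSS dose and duration and the way epithelial cells were isolated are given neither by the labels nor by the series text. The comparisons ask how caNrf2, DSS and the tissue sampled bear on the RNA levels of these transporters.

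Amino acids cross membranes only through carriers, and most carriers take a group of related substrates. The Slc7 light chains are held at the membrane by 1 of the heavy chains of the Slc3 family and exchange amino acids across it, while the cationic carriers of Slc7 work alone. Slc1, Slc6 and Slc38 carriers are driven by sodium, and Slc36a1 and Slc36a2 by protons. The Slc43 carriers Slc43a1 and Slc43a2 let large neutral amino acids pass down their gradient. In the gut, apical carriers take amino acids up from the lumen and basolateral ones pass them to the blood, and carriers of neurotransmitters such as serotonin belong to the same Slc6 family. Nrf2 is known for its control of the cystine carrier Slc7a11, which lies outside the set described here.

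Summed estimated counts ran from 6683803 to 15399862 per epithelial library and from 20232309 to 154336039 per wall library. To check the transgene, 12 Nrf2 targets were used. With caNrf2 their median log2 fold change was 1.39 in the epithelial libraries, 1.55 in the untreated wall and 1.94 in the wall given DSS. Of these targets 0, 2 and 4 passed the test. The Nrf2 gene Nfe2l2 had log2 fold changes of 0.88, 0.65 and 0.62 in the same order, none past the threshold. Whether its counts include RNA of the transgene cannot be told. The library labelled replicate 2 of untreated caNrf2 wall went against its label in these targets, with a sum of 1183 CPM (counts scaled to a common library size), within the range of 890.4 to 1483 of the untreated controls, while the other 3 libraries of its group stood at 2928 to 3893. Counts of transporters past the threshold in the main tests that rest on it are also given without it, with the calls lost. Values of single genes include it unless stated. Smooth muscle markers summed to 12.1 to 81.0 CPM in epithelial libraries and 8688 to 35509.7 in wall. The 6 general epithelial markers summed to 6774 to 13937 and 5621 to 15593. The epithelial libraries thus stood out by low smooth muscle markers, and not by higher general epithelial ones. Goblet cell markers summed to 20725 to 45664 in epithelial cells and 5862 to 8851 in untreated wall. Replicate 3 of the control epithelial cells and replicate 1 of the caNrf2 epithelial cells stood apart, with summed colonocyte markers of 27681 and 28586 CPM. The other 6 were at 4159 to 8300, and untreated wall was at 7503 to 13490. Epithelial cells and wall may thus also differ in their mix of epithelial cell types, and the part of this was not tested. The labels do not say that replicates came from separate animals, so the p-values measure the spread between these libraries, which may be technical. In these bulk samples fewer cells of a type and less RNA per cell cannot be told apart.

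A few carriers held most of the transporter RNA. Compared per length as deposited TPM values, which scale counts by transcript length and library size, summed over the transcripts of a gene, the 5 highest genes made up 56.6% of the summed level in control epithelial cells and 67.5% in untreated control wall, and 25 of the 58 genes had a mean below 1 TPM in each. In control epithelial cells Slc1a5, the neutral exchanger ASCT2 that carries glutamine, led with 281 ± 87.9 TPM (SD, n = 4). Slc6a14, which takes up neutral and cationic amino acids, followed at 116 ± 95.3 TPM, and Slc38a2, a sodium-coupled carrier that is raised in amino acid shortage, at 88.4 ± 31.6 TPM. Slc38a10, a relative of it, and Slc6a6, the taurine carrier, came next at 79.9 ± 15.3 TPM and 74.6 ± 8.76 TPM. The ranges of the 4 libraries overlapped between each of these genes and the next in order.

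In untreated control wall the creatine carrier Slc6a8 was first at 276 ± 48.6 TPM (SD, n = 4). Slc6a14 at 214 ± 64.8 TPM and Slc1a5 at 156 ± 32.7 TPM followed. These 3 overlapped in order, and the lowest library of Slc1a5 lay above every library of the fourth gene, Slc38a2, at 62.6 ± 18.5 TPM. The heavy chain Slc3a2 stood at 61.0 ± 12.3 TPM and the proton-coupled carrier Slc36a1, which takes small neutral amino acids, at 59.2 ± 11.4 TPM. By class, the highest genes in the wall were Slc7a7 among the light chains at 27.2 TPM, Slc7a1 among the cationic carriers at 11.3 TPM and Slc43a3 in its family at 16.1 TPM.

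**Figure D1:**
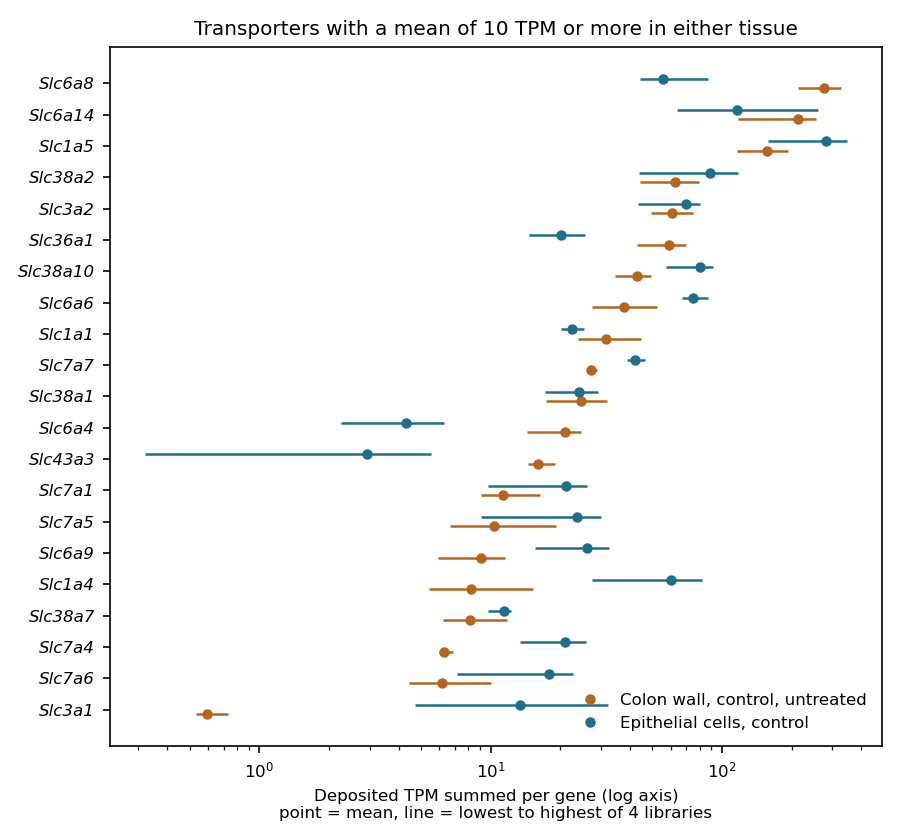
Transporters with a mean of 10 TPM or more in control epithelial cells or untreated control colon wall, as mean and range of 4 libraries on a log axis. Slc1a5 was highest in epithelial cells and Slc6a8 in the wall, and Slc6a14 had the widest range of the epithelial libraries among the genes with the highest means.

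Epithelial cells and colon wall differed in many of these carriers, on both sides. In control mice 16 of the 42 transporters that passed the filter on low counts were higher in epithelial cells than in untreated wall and 8 were lower, which is 57.1% against 38.6% of all 15073 genes tested by the edgeR quasi-likelihood test with Benjamini-Hochberg adjustment (adjusted p below 0.05). Over all genes 18.9% were higher and 19.7% lower. In caNrf2 mice 17 were higher and 10 lower, which is 64.3% against 43.5% of all genes (20% higher and 23.5% lower). All 16 genes higher in the controls were among the 17 of the caNrf2 mice, and 7 genes were lower in both. The 2 comparisons share no library, and their overlap over all genes was not computed. Of the 7, Slc43a3, Slc6a15 and Slc6a17 passed the filter only through the wall in both genotypes, so their overlap is not read. The others were Slc36a1, Slc6a4, Slc6a8 and Slc7a8. Without the library labelled untreated caNrf2 wall replicate 2, 16 were higher and 10 lower in caNrf2 mice, against 37.4% of all genes, and the call lost was that of Slc38a7. The median log2 difference was 0.53 and 0.40, against 0.04 and -0.02 over all genes, and both member medians were the same with genes at 0 set to their bound. The filter keeps a gene that reaches a set level in 4 libraries of any group, so a transporter that passed it only through the wall was bound to be lower in epithelial cells. Of the 34 that reached that level in every library of both control groups, 16 were higher and 4 lower, which is 58.8% against 33.3% of all genes that did, and of the 28 in caNrf2 mice 17 were higher and 5 lower, or 78.6% against 38.8%. The other calls, all lower, were Slc36a2, Slc43a3, Slc6a15 and Slc6a17 in controls and Slc43a3, Slc6a11, Slc6a12, Slc6a15 and Slc6a17 in caNrf2 mice, and nothing is read from their tests. Where leaving out 1 library lost a call that is read, the fit with the highest adjusted p is given, here and for DSS.

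Among the glutamate and neutral exchangers, Slc1a4, the exchanger ASCT1 for alanine, serine and cysteine, showed the widest difference of the Slc1 family. Its CPM in control epithelial cells was 164, 109.5, 67.7 and 157, against 13.96, 36.2, 17.3 and 11.7 in untreated control wall. Every epithelial library lay above every wall library (log2 fold change 2.85, SE 0.42, adjusted p = 7.21e-05). The glutamine exchanger Slc1a5 had 493, 409, 271 and 465 CPM in epithelial cells and 264, 318, 224 and 226 in wall. Epithelial replicate 3 of Slc1a5 lay within the wall range, and the gene was higher by the test (log2 fold change 0.85, SE 0.20, adjusted p = 0.00357). In the caNrf2 pair both genes differed in the same way, with log2 fold changes of 3.31 and 1.21. Slc1a1, the glutamate and aspartate carrier EAAT3, was lower in epithelial cells in the caNrf2 pair (log2 fold change -0.80, SE 0.27, adjusted p = 0.0252), and lost the call without untreated caNrf2 wall replicate 4 (adjusted p = 0.0518) or without epithelial caNrf2 replicate 2 (adjusted p = 0.0516).

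The heavy chain Slc3a1, the partner of the cystine carrier Slc7a9, had 5.65, 9.28, 45.8 and 10.1 CPM in control epithelial cells and 0.86, 0.726, 0.855 and 0.809 in untreated control wall. All epithelial libraries lay above all wall libraries (log2 fold change 4.63, SE 0.80, adjusted p = 0.000275). Slc7a9 did not follow it, with 0.831, 0.969, 6.59 and 1.85 CPM in epithelial cells and 6.42, 1.72, 5.58 and 4.56 in wall and a log2 difference of -0.63 that missed the threshold (adjusted p = 0.58). The other heavy chain Slc3a2, called 4F2hc or CD98, was higher in epithelial cells in the caNrf2 pair (log2 fold change 0.62, SE 0.14, adjusted p = 0.00196) and not past the threshold in the controls (log2 fold change 0.21, SE 0.14, adjusted p = 0.255). Of its light chains, Slc7a5, Slc7a6 and Slc7a7 were higher in epithelial cells in both genotypes and Slc7a8 was lower. Slc7a7, which exports cationic amino acids at the basolateral side, had a log2 fold change of 0.66 in controls (adjusted p = 0.000336), and Slc7a6, a close relative, had 1.53 (adjusted p = 0.00146). Slc7a8, the carrier LAT2 of small and large neutral amino acids, had 6.32, 8.96, 6.52 and 8.30 CPM in control epithelial cells and 19.4, 13.3, 16.5 and 21.3 in wall. All epithelial libraries of Slc7a8 lay below the wall (log2 fold change -1.05, SE 0.28, adjusted p = 0.00738). Slc7a5, the carrier LAT1 of large neutral amino acids, kept its call in the controls in 4 of 8 fits that left out 1 library (log2 fold change 1.18, SE 0.36, adjusted p = 0.0173; adjusted p = 0.0643 without untreated control wall replicate 1).

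Of the cationic carriers, Slc7a1, the main arginine and lysine carrier of many cells, and its orphan relative Slc7a4 were higher in epithelial cells. Slc7a4 had 41.0, 35.1, 27.2 and 41.0 CPM in control epithelial cells and 12.6, 12.2, 13.6 and 10.9 in wall, with no overlap (log2 fold change 1.73, SE 0.19, adjusted p = 4.78e-06). For Slc7a1 the log2 fold change was 0.89 in controls (adjusted p = 0.0126) and 1.86 in caNrf2 mice (adjusted p = 4.8e-05). The deposited files of the wall replicates 4 have another number than the rest, and without these libraries Slc7a1 lost its call in controls (0.70, adjusted p = 0.0626), as did Slc38a2 and Slc7a5 (adjusted p = 0.0883 and 0.0558), while Slc1a1, Slc38a2 and Slc38a7 lost theirs in caNrf2 mice (adjusted p = 0.0588, 0.0647 and 0.0853). Slc7a2 and Slc7a14 were not called in either pair, and Slc7a3 was not tested there.

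The Slc6 family stood on both sides of the comparison. Slc6a6, the taurine carrier, had 238, 239, 264 and 267 CPM in control epithelial cells against 125, 197, 121 and 123 in untreated control wall, and Slc6a9, the glycine carrier GlyT1, had 55.7, 45.2, 31.9 and 49.0 against 16.6, 22.1, 13.7 and 18.4. Both were higher in epithelial cells with no overlap, with log2 fold changes of 1.02 (SE 0.16, adjusted p = 0.000157) and 1.54 (SE 0.26, adjusted p = 0.000261). The creatine carrier Slc6a8 was lower, at 95.7, 94.8, 217 and 86.4 CPM against 706, 509.9, 832 and 638 (log2 fold change -2.25, SE 0.33, adjusted p = 7.04e-05). The serotonin carrier Slc6a4 had 5.73, 9.20, 3.85 and 6.32 CPM in epithelial cells and 44.1, 23.6, 42.3 and 30.2 in wall (log2 fold change -2.30, SE 0.29, adjusted p = 1.69e-05). Slc6a17, a vesicular carrier of neurons, had 0.166, 0.242, 0 and 0.395 CPM in control epithelial cells, from 0 to 3 counts a library, and 17.1, 25.5, 14.5 and 19.9 in the wall, where every library lay above the epithelial ones. The GABA carriers Slc6a11 and Slc6a12, the latter also a betaine carrier, passed the filter only through the wall in the caNrf2 pair, so only their levels are given. Slc6a11 had no count in caNrf2 epithelial cells and 1.09 to 1.56 CPM in caNrf2 wall, at least 20.2-fold higher by a floor of 3 counts over the 4 libraries, and Slc6a12 stood at 0 to 1.18 CPM in caNrf2 epithelial cells and 1.45 to 2.65 in caNrf2 wall. Slc6a15, a neutral carrier of the brain, had no count in the 8 epithelial libraries and 1.35, 2.04, 1.38 and 1.28 CPM in untreated control wall, which is at least 23.0-fold higher in the wall by the same floor. Such floors cover counting error only. Summed neuron and glia markers, which move with these last genes, were 1.11 to 6.42 CPM in epithelial libraries and 35.7 to 96.9 in untreated wall, with Sox10 at 0 in control epithelial cells, and their part in the result was not tested.

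The remaining families also held members higher and lower in epithelial cells. Slc38a9, the lysosomal arginine sensor of the growth regulator mTORC1, had 33.1, 28.7, 10.7 and 30.4 CPM in control epithelial cells and 5.75, 4.81, 5.29 and 8.92 in wall (log2 fold change 2.22, SE 0.37, adjusted p = 0.000228). Slc38a10 and Slc38a7, the lysosomal glutamine exporter, were higher in epithelial cells too, with log2 fold changes of 0.91 (adjusted p = 3.45e-05) and 0.54 (adjusted p = 0.00762). Slc38a2 passed in both pairs, but in controls in 2 of 8 fits that left out 1 library (log2 fold change 0.51, SE 0.19, adjusted p = 0.0462; 0.37 and adjusted p = 0.19 without untreated control wall replicate 3). Slc36a1 was lower, at 57.8, 55.4, 48.7 and 66.7 CPM against 243, 138, 229 and 165 (log2 fold change -1.57, SE 0.19, adjusted p = 9.53e-06), and Slc36a4, which carries proline and tryptophan, was higher, at 13.7, 10.1, 6.81 and 8.30 against 3.22, 4.13, 3.61 and 4.61 (log2 fold change 1.502, SE 0.28, adjusted p = 0.000521). Slc36a2 had no count in control epithelial cells, at least 23.0-fold below the wall by the same floor. Slc36a2 is known from brown and beige fat, and adipocyte markers summed to 0.44 to 15.1 CPM in epithelial libraries and 22.0 to 175 in untreated wall, and their part in the result was not tested. Among the Slc43 facilitators, Slc43a1 was higher in epithelial cells (log2 fold change 1.99, SE 0.44, adjusted p = 0.00185) and Slc43a2 was not called (log2 fold change 0.44, SE 0.17, adjusted p = 0.0531). Slc43a3, which carries purine bases, stood at 2.91, 7.67, 0.518 and 4.61 CPM in control epithelial cells and 26.0, 29.3, 28.3 and 18.3 in wall. Slc43a3 passed the filter only through the wall in both genotypes, so only its levels are given. In the caNrf2 pair Slc38a7 kept its call in 3 of 8 fits that left out 1 library (adjusted p = 0.127 without untreated caNrf2 wall replicate 4), and Slc38a2 in 7 of 8 (adjusted p = 0.0584 without that library).

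**Figure D2:**
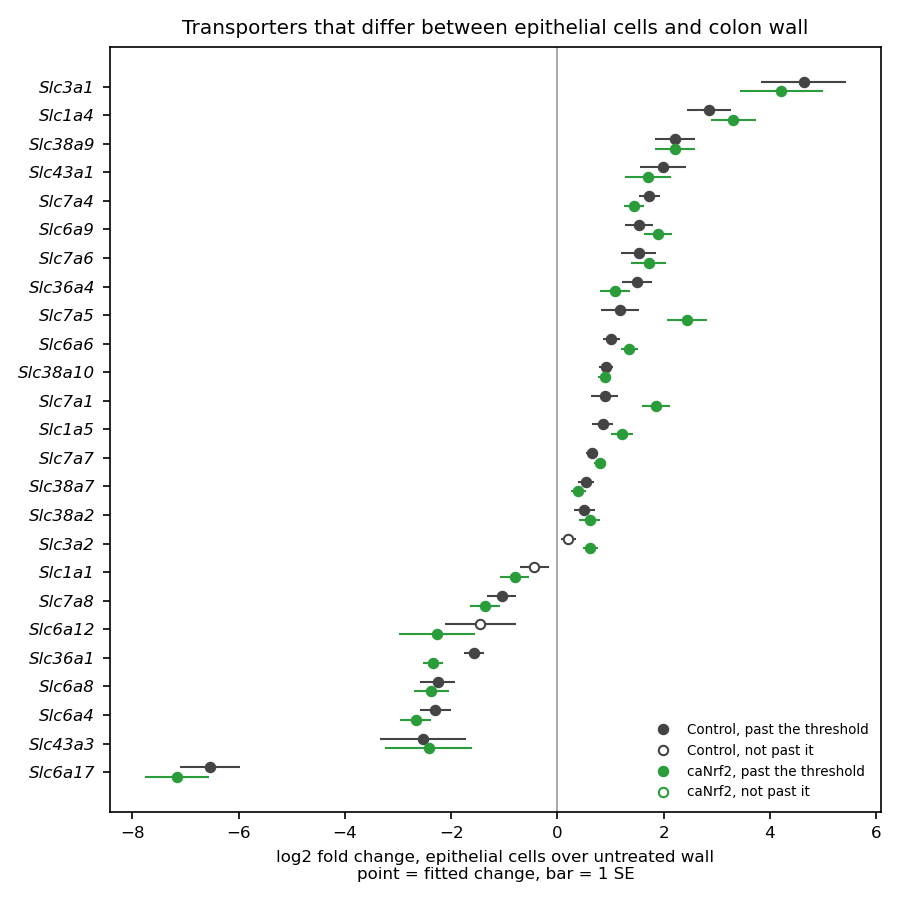
Log2 fold change of epithelial cells over untreated colon wall with 1 SE, for transporters past the threshold in control or caNrf2 mice, leaving out Slc6a15, Slc36a2 and Slc6a11, which had a group with no count. Slc6a17, Slc6a12 and Slc43a3 passed the filter on low counts only through the wall in at least 1 genotype. Slc3a1 lies at the top and Slc6a17 at the bottom, and filled points passed an adjusted p of 0.05.

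Both epithelial libraries that stood apart did so in some transporters too, in shares not above those of all genes. Control replicate 3 and caNrf2 replicate 1 lay above the other 6 epithelial libraries in 5 of 36 tested transporters and below them in 8, which is 13.9% and 22.2% against 21.1% and 22.6% of all genes with enough counts. Slc6a14 had 116, 137, 558 and 114 CPM in control epithelial cells and 435, 100.03, 31.5 and 73.4 in caNrf2 epithelial cells. The values of 558 and 435 in these libraries stood within the wall range of 243 to 563, and the other 6 were at 137 or below. Slc3a1, Slc6a8, Slc7a9 and Slc1a1 were the other genes above, and Slc6a8 was at 217 and 224 CPM against 84.3 to 107.7 elsewhere. Slc38a9 was at 10.7 and 11.3 CPM against 28.7 to 37.1 elsewhere, and Slc1a5 at 271 and 302 against 409 to 537. Slc1a3, Slc38a10, Slc43a1, Slc7a14, Slc7a4 and Slc7a6 were also below. Summed crypt and proliferation markers were 395 and 381 CPM in these libraries and 500.8 to 804 in the other 6. The part of these marker levels in the transporter values was not tested.

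**Figure D3:**
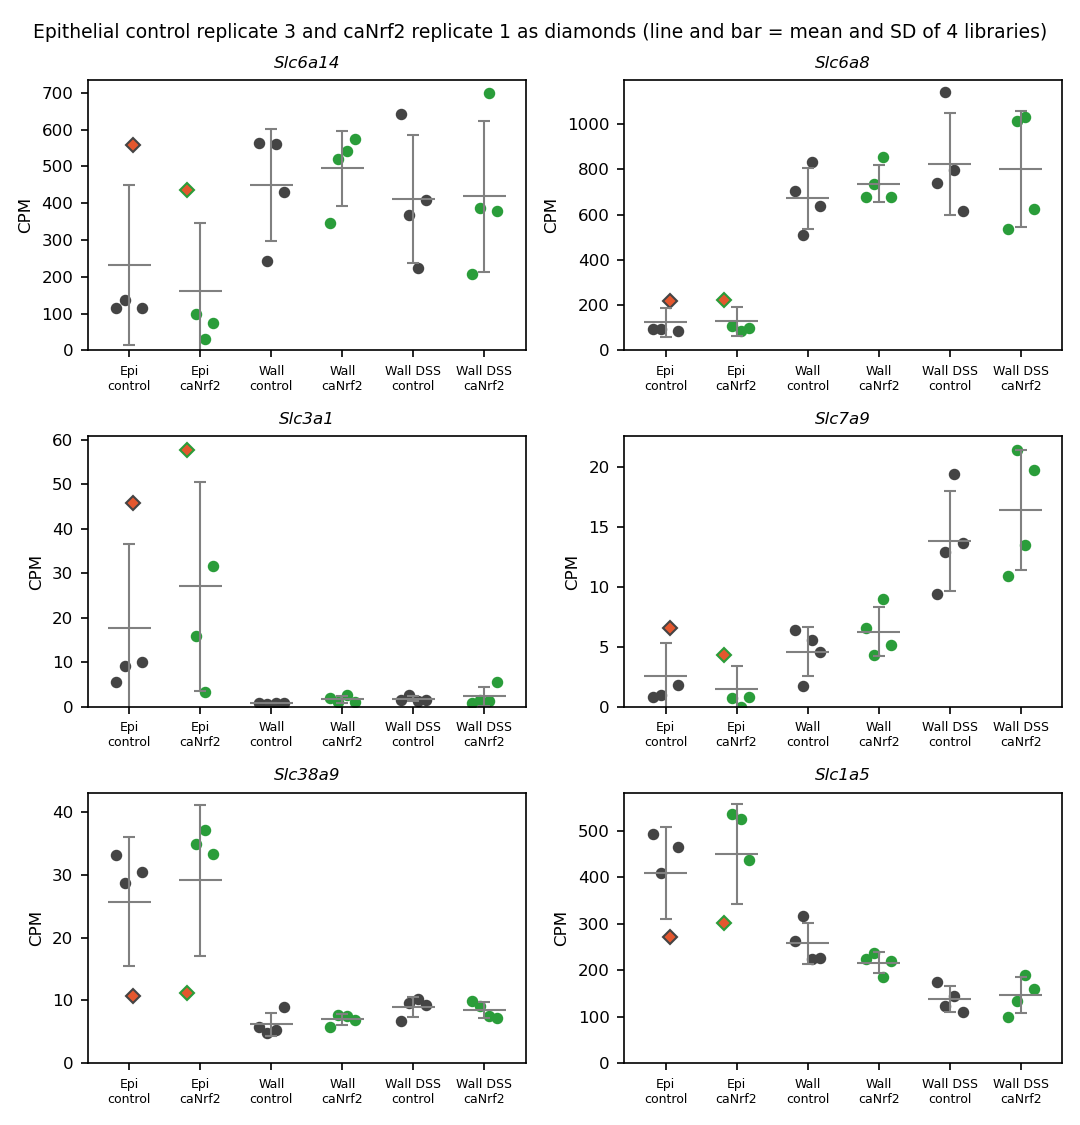
CPM of 6 transporters in all 24 libraries by group, with control epithelial replicate 3 and caNrf2 epithelial replicate 1 as diamonds and mean and SD of 4 libraries as line and bar. The diamonds lie above the other epithelial libraries in Slc6a14, Slc6a8, Slc3a1 and Slc7a9 and below them in Slc38a9 and Slc1a5.

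With caNrf2 in epithelial cells, no transporter passed the threshold, and neither did any of the 12941 genes tested (0% called). At an unadjusted p below 0.05 there were 6 of 36 transporters, against 10.4% of all genes, and DESeq2 called 1 transporter and limma-voom 4, which is 2.78% and 11.1% of the 36 against 1.66% and 9.98% of all genes. In 4 transporters every caNrf2 library lay above every control, as in 2.64% of all genes, and in 1 below, as in 4.32%. The 4 were the taurine carrier Slc6a6, the glycine carrier Slc6a9, the serine exchanger Slc1a4 and the heavy chain Slc3a2.

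Slc6a6 had 238, 239, 264 and 267 CPM in control and 390.3, 361, 349.7 and 354 in caNrf2 epithelial cells. All 4 caNrf2 libraries stood above the controls, including caNrf2 replicate 1, which stood apart in other genes (log2 fold change 0.55, SE 0.13, unadjusted p = 0.00197, adjusted p = 0.232). It passed with DESeq2 (adjusted p = 0.00129) and without both odd libraries (log2 fold change 0.56, adjusted p = 0.0163). Slc6a9 had 55.7, 45.2, 31.9 and 49.0 CPM in controls and 60.4, 110, 74.3 and 63.4 with caNrf2. Here too the groups did not overlap, by a narrower margin between control replicate 1 and caNrf2 replicate 1 (log2 fold change 0.79, SE 0.22, unadjusted p = 0.00539, adjusted p = 0.302), and the adjusted p was 0.0492 without both odd libraries. Slc1a4 had 164, 109.5, 67.7 and 157 CPM in controls and 188, 255, 171 and 217 with caNrf2, the lowest value being control replicate 3 (log2 fold change 0.77, SE 0.25, unadjusted p = 0.0138, adjusted p = 0.351). Slc3a2 had 108, 112, 70.5 and 94.3 CPM in controls and 123, 126, 114 and 125 with caNrf2, again with no overlap and with control replicate 3 lowest (log2 fold change 0.38, SE 0.14, unadjusted p = 0.0228, adjusted p = 0.399). Slc36a4 was the 1 transporter with all caNrf2 libraries below the controls, at 4.74, 6.07, 6.07 and 2.95 against 13.7, 10.1, 6.81 and 8.30 CPM (log2 fold change -0.93, SE 0.32, unadjusted p = 0.0166, adjusted p = 0.374). The light chains of Slc3a2 had log2 fold changes of 0.54 for Slc7a5, -0.47 for Slc7a6, 0.20 for Slc7a7 and 0.45 for Slc7a8, none past the threshold.

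In DSS-treated wall the transgene gave no transporter past the threshold either, where 0.0933% of all 16074 genes passed. DESeq2 and limma-voom called 0 transporters as well, against 0.268% and 0% of all genes. Of 50 transporters tested, 7 had an unadjusted p below 0.05, against 2.53% of all genes. In 5 every caNrf2 library lay above every control, as in 0.846% of all genes, and in 0 below, as in 0.666%. Slc6a9 had 19.7, 18.8, 16.9 and 21.3 CPM in control and 25.5, 34.2, 33.4 and 33.3 in caNrf2 wall after DSS (log2 fold change 0.68, SE 0.22, unadjusted p = 0.00571, adjusted p = 1). Slc1a4 had 10.9, 5.83, 7.96 and 9.96 CPM in controls and 18.6, 16.6, 15.8 and 35.2 with caNrf2, where caNrf2 replicate 4 stood far above the rest (log2 fold change 1.28, SE 0.41, unadjusted p = 0.00642, adjusted p = 1). In both genes the groups did not overlap. Slc3a2 had 84.5, 94.5, 100.3 and 117 CPM in controls and 116, 115, 120.1 and 154 with caNrf2, and control replicate 4 lay above the 2 lowest caNrf2 libraries (log2 fold change 0.31, SE 0.14, unadjusted p = 0.0408, adjusted p = 1). The others without overlap were the glial glutamate carrier Slc1a3 at 1.38 to 3.91 against 4.96 to 6.14 CPM, the proline carrier Slc36a2 at 0.501 to 1.84 against 1.95 to 2.97, and the small neutral carrier Slc7a10 at 0.069 to 0.635 against 0.782 to 1.93. Of the groups compared, only the caNrf2 group reached the level of the filter on low counts in every library for Slc7a10. Nothing is read from the place of Slc7a10 in these counts. Slc7a10 and Slc36a2 are known from fat, and adipocyte markers summed to 36.6, 47.1, 62.9 and 93.4 CPM in control and 74.1, 92.3, 110.2 and 124 in caNrf2 wall after DSS, and their part in the result was not tested.

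The comparisons in epithelial cells and in DSS-treated wall share no library. Slc1a4, Slc3a2 and Slc6a9 were the 3 transporters with an unadjusted p below 0.05 and higher with caNrf2 in both. They are 60% of 5 in epithelial cells and 75% of 4 in DSS-treated wall, among the 36 tested in each. In each comparison alone, 4.03% and 1.15% of all genes were higher at that p. The share of all genes higher in both was not computed, so the overlap has no background beside it. Over the 36 the fitted changes had the same sign in 21, also with no share of all genes computed. In untreated wall Slc1a4 had 42.3, 12.5, 24.9 and 14.02 CPM with caNrf2 and 13.96, 36.2, 17.3 and 11.7 in controls, Slc3a2 had 81.3 to 92.4 with caNrf2 and 84.5 to 116 in controls, and Slc6a9 had 25.6, 13.1, 23.9 and 29.8 with caNrf2 and 16.6, 22.1, 13.7 and 18.4 in controls. In all 3 these groups overlapped, with log2 fold changes of 0.27, -0.07 and 0.42. Without the library labelled caNrf2 replicate 2 there these were 0.49, -0.02 and 0.62, with adjusted p = 0.848, 0.995 and 0.222. The GABA carrier Slc6a11 was the 1 transporter with an unadjusted p below 0.05 and a lower fitted level with caNrf2 after DSS, at 0.325 to 0.69 against 0.293 to 1.14 CPM (-0.82, adjusted p = 1). The plot of these carriers by library shows the values.

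**Figure D4:**
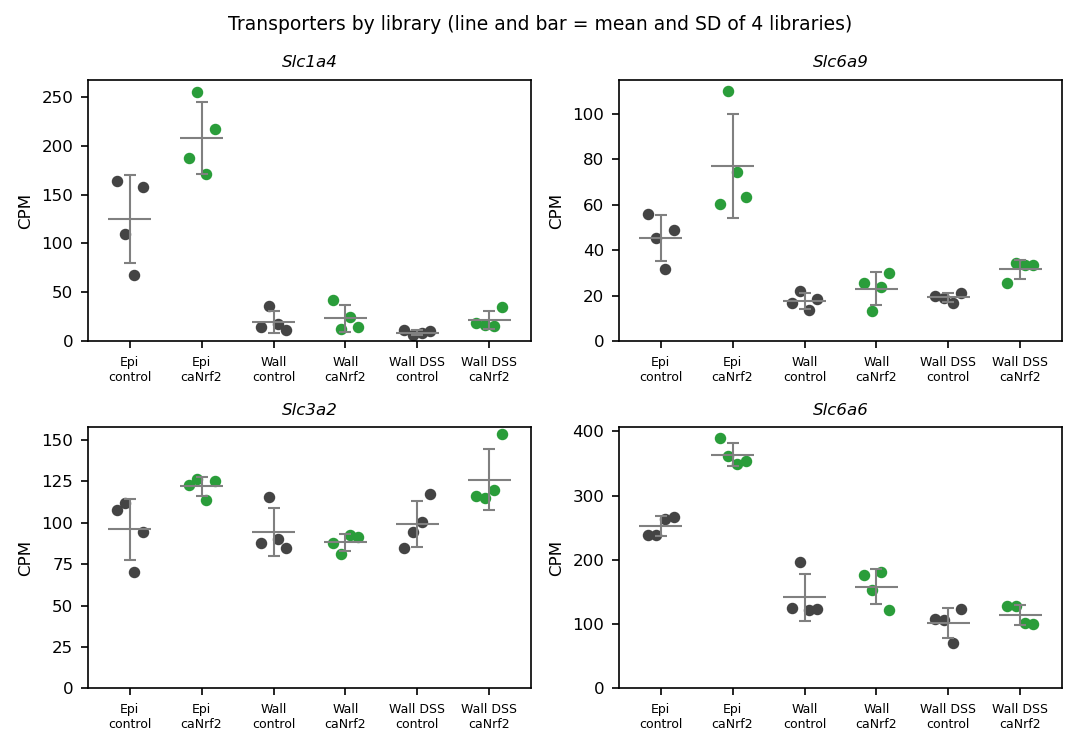
CPM of Slc1a4, Slc6a9, Slc3a2 and Slc6a6 in every library of the 6 groups, with mean and SD of 4 libraries. In epithelial cells all 4 caNrf2 libraries lie above all 4 controls in each gene, and in untreated wall the groups overlap.

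The promoters of Slc1a4, Slc3a2 and Slc6a9 are described because these carriers had an unadjusted p below 0.05 and a higher fitted level with caNrf2 both in epithelial cells and in DSS-treated wall, with none past the threshold in either. RefSeq windows of GRCm38.p6, from 250 bases before to 50 after the start, were at hand for 40 of the 58 genes. TGACNNNGC, the core of the antioxidant response element that Nrf2 binds with small Maf proteins, was searched on both strands. It was found in 8 of the 40 genes, or 20.0%, against 13.99% of all genes with a window and 12.39% of all windows. TGATGNAA, the core of the element bound by ATF4 with C/EBP proteins, was found in 2 of the 40, Slc1a4 and Slc7a7, or 5.0% against 4.51% of all genes and 3.97% of all windows. Slc6a9 holds TGACNNNGC in 2 of its 3 windows, and the third, at the start of the transcript in the deposited tables, has none. The window of Slc3a2 holds neither motif. The windows with a match follow 5′ to 3′ on the gene's strand, with the matched bases in capitals, and a match describes letters and not a site in use.
Slc1a4, chr11:20332664-20332963, minus strand, TGATGNAA read on the other strand, beginning 4 bases before the start: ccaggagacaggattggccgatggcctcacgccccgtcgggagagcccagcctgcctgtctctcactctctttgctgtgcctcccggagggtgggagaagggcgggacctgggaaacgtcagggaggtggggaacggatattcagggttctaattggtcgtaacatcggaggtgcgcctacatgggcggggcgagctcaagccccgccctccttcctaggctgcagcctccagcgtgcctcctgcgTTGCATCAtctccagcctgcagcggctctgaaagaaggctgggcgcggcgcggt
Slc6a9, chr4:117849100-117849399, plus strand, TGACNNNGC beginning 46 bases before the start: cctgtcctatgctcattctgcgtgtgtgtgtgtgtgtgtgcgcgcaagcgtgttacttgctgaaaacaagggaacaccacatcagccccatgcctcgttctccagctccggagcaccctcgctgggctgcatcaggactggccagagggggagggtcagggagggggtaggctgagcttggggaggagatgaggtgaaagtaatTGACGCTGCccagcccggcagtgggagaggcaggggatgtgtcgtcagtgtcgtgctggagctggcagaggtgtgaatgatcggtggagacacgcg
Slc6a9, chr4:117855297-117855596, plus strand, TGACNNNGC beginning 45 bases before the start: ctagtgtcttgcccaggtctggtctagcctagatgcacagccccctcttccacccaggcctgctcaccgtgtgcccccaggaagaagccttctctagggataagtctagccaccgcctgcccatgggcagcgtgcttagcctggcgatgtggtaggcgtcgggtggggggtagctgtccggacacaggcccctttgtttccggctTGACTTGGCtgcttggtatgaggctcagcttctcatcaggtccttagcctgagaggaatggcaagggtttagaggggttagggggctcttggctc

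In untreated wall caNrf2 brought no transporter past the threshold, where 0.224% of all 16074 genes passed. DESeq2 called 0 transporters, against 1.46% of all genes, and limma-voom 11, or 22% of the 50 against 15.5% of all genes. Without the library labelled untreated caNrf2 wall replicate 2 no transporter passed either, where 0.255% of all genes did. An unadjusted p below 0.05 was found in 10 of 50, against 10.5% of all genes, and 5 transporters lay wholly above the controls, as 2.95% of all genes did, and 2 wholly below, as did 3.84%. Slc38a7, the lysosomal glutamine exporter, had 15.6, 14.3, 14.4 and 18.8 CPM in control and 20.3, 22.8, 23.4 and 19.6 in caNrf2 wall. The groups did not overlap (log2 fold change 0.47, SE 0.13, unadjusted p = 0.00269, adjusted p = 0.179; 0.45 and adjusted p = 0.376 without the library labelled caNrf2 replicate 2), and it passed without untreated control wall replicate 4 (log2 fold change 0.59, adjusted p = 0.0255), one of those with another file number. Slc36a1 had 243, 138, 229 and 165 CPM in control and 276, 270.2, 408 and 257 in caNrf2 wall, also with no overlap (log2 fold change 0.68, SE 0.28, unadjusted p = 0.0291, adjusted p = 0.404; 0.74 and adjusted p = 0.544 without that library). In caNrf2 wall Slc7a6 had 7.76, 7.90, 8.14 and 9.63 CPM against 11.2, 22.5, 11.8 and 10.4 in controls, and Slc36a4 had 2.56, 2.74, 2.67 and 2.54 against 3.22, 4.13, 3.61 and 4.61. Both lay wholly below the controls. Slc7a8 had a log2 fold change of 0.74 (unadjusted p = 0.00658, adjusted p = 0.239) and Slc7a1 of -0.65 (unadjusted p = 0.00725, adjusted p = 0.245). Slc38a1, a sodium-coupled glutamine carrier, had -0.43 (adjusted p = 0.259) and Slc43a2 had 0.58 (adjusted p = 0.295). Untreated control wall replicate 2 had the highest control value in Slc7a1, Slc7a5, Slc7a6, Slc1a4, Slc43a1 and Slc6a6, with summed crypt markers of 711 CPM and adipocyte markers of 175, against 23.1 to 76.1 for adipocyte markers in caNrf2 wall. The part of these markers was not tested. The other transporters wholly above the controls were Slc3a1 at 0.976 to 2.57 against 0.726 to 0.86 CPM, Slc6a4 at 46.5 to 60.3 against 23.6 to 44.1 and Slc6a11 at 1.09 to 1.56 against 0.75 to 0.978.

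With DSS 21 transporters passed the threshold in each genotype. In control mice 16 transporters rose and 5 fell of 50, which is 42% against 39.2% of all 16074 genes, with a median log2 change of 0.21 against 0.06 over all genes, of which 23.1% rose and 16.1% fell. In caNrf2 mice 16 rose and 5 fell as well, 42% against 41.2% of all genes, with a median of 0.36 against 0.01 over all genes, of which 23.1% rose and 18.1% fell. The share was thus near the background in both. Without the library labelled untreated caNrf2 wall replicate 2, 13 rose and 4 fell in caNrf2 wall, or 33.3% against 30.9% of all genes, and the calls lost were Slc1a5, Slc1a7, Slc38a4 and Slc7a3. Without the wall libraries of the other file number the calls lost were Slc1a7, Slc38a11, Slc7a14 and Slc7a3 in controls (adjusted p = 0.165, 0.0703, 0.191 and 0.0776) and Slc1a3, Slc1a7, Slc38a4 and Slc7a3 in caNrf2 wall (adjusted p = 0.0766, 0.0581, 0.0892 and 0.0608). Some passed the filter on low counts only through the group where they were high, which were Slc1a7, Slc6a2, Slc7a3 and Slc6a12 in controls and Slc36a2 and Slc6a2 in caNrf2 wall, and nothing is read from those calls. Among the 41 and 42 transporters that passed it in both groups, 41.5% and 45.2% were called, against 39.2% and 41.2% of all genes that did. The 2 comparisons share no library: 10 of the 16 that rose, or 62.5% of each set, were called in both, as were 2 of the 5 that fell, or 40%. The 10 include Slc1a7, Slc6a2 and Slc7a3, and the 2 include Slc6a12. In controls these passed the filter only through the group where they were high, so their overlap is not read. The fitted change had the same sign in 40 of 50. The overlap and the shared signs over all genes were not computed.

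Of the glutamate and neutral exchangers, Slc1a5 fell in both genotypes. It had 264, 318, 224 and 226 CPM in untreated and 175, 124, 145 and 109.6 in DSS-treated control wall, with no overlap (log2 fold change -0.81, SE 0.18, adjusted p = 0.00298). In caNrf2 wall it had 225, 237, 186 and 219.6 CPM untreated and 99.8, 134, 191 and 161 after DSS, where DSS replicate 3 lay within the untreated range (log2 fold change -0.55, SE 0.18, adjusted p = 0.0246), and kept the call in 4 of 8 fits that left out 1 library (adjusted p = 0.0664 without DSS caNrf2 replicate 2). Slc1a4 fell in the controls (log2 fold change -1.10, SE 0.41, adjusted p = 0.0433), but the call held in 4 of 8 fits that left out 1 library (-0.64 and adjusted p = 0.202 without untreated control replicate 2), and in caNrf2 wall its log2 change was -0.09. Slc1a3 rose in caNrf2 wall, with 4.35, 2.23, 2.12 and 1.48 CPM untreated and 5.77, 4.96, 5.22 and 6.14 after DSS (log2 fold change 1.17, SE 0.35, adjusted p = 0.0139; 0.90 and adjusted p = 0.0766 without the wall libraries of the other file number), and missed the threshold in controls (log2 fold change 0.24, SE 0.35, adjusted p = 0.599). Slc1a7, known as a retinal glutamate carrier, stood at 0.26 to 1.25 CPM over both genotypes. It rose in caNrf2 wall, a call kept in 2 of 8 fits that left out 1 library (adjusted p = 0.18 without DSS caNrf2 replicate 2). In controls it passed the filter only through the DSS group, and nothing is read from that call. Summed crypt and proliferation markers, given beside Slc1a5 and Slc7a1, ranged over 327 to 711 CPM untreated and 21.6 to 335 after DSS, and their part in the result was not tested.

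Among heavy and light chains, Slc7a9, the apical cystine and cationic exchanger, rose in both genotypes. It had 6.42, 1.72, 5.58 and 4.56 CPM in untreated and 9.39, 12.9, 19.4 and 13.6 in DSS-treated control wall, with no overlap (log2 fold change 1.67, SE 0.36, adjusted p = 0.00206). The caNrf2 values were 6.58, 4.34, 9.02 and 5.15 CPM untreated and 10.9, 21.4, 13.5 and 19.7 after DSS (log2 fold change 1.41, SE 0.35, adjusted p = 0.00516). Its heavy chain Slc3a1 stayed low, at 0.726 to 0.86 and 1.37 to 2.66 CPM in controls, with a change that missed the threshold (log2 fold change 1.22, SE 0.49, adjusted p = 0.0585). Slc3a2 rose in caNrf2 wall, from 88.1, 81.3, 92.4 and 91.2 to 116, 115, 120.1 and 154 CPM (log2 fold change 0.54, SE 0.14, adjusted p = 0.0067), all DSS libraries lying above the untreated ones. In controls it had a log2 change of 0.16 (adjusted p = 0.379). Slc7a6 and Slc7a7 rose in caNrf2 wall (0.89 and 0.42, adjusted p = 0.015 and 0.0155), each losing the call without 1 library (adjusted p = 0.0812 without DSS caNrf2 replicate 1 for Slc7a6 and 0.0569 without DSS caNrf2 replicate 3 for Slc7a7). Slc7a8 rose in controls in 4 of 8 fits that left out 1 library (log2 fold change 0.73, SE 0.24, adjusted p = 0.0236; 0.61 and adjusted p = 0.0843 without untreated control replicate 3). Slc7a5 fell in controls, a call kept in 2 of 8 fits that left out 1 library (log2 fold change -0.89, SE 0.34, adjusted p = 0.0441; -0.44 and adjusted p = 0.24 without untreated control replicate 2).

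The cationic carriers moved apart. Slc7a1 fell in controls, from 48.9, 71.5, 46.7 and 34.0 to 26.0, 19.6, 18.5 and 21.9 CPM with no overlap (log2 fold change -1.14, SE 0.22, adjusted p = 0.00102), and had a log2 change of -0.18 in caNrf2 wall (adjusted p = 0.506). Slc7a2, the carrier CAT2 that is raised in activated macrophages, rose in controls from 1.76, 1.996, 1.91 and 3.04 to 4.13, 6.24, 4.64 and 7.75 CPM (log2 fold change 1.46, SE 0.35, adjusted p = 0.00407). In caNrf2 wall it missed the threshold (log2 fold change 0.85, SE 0.34, adjusted p = 0.0578). Slc7a4 fell in caNrf2 wall, from 16.9, 20.8, 16.3 and 11.4 to 7.03, 9.71, 11.01 and 9.35 CPM (log2 fold change -0.79, SE 0.17, adjusted p = 0.00222). The lysosomal relative Slc7a14 rose in both, with 0.61 in controls and 0.94 in caNrf2 wall. In controls it kept its call in 2 of 8 fits that left out 1 library (adjusted p = 0.166 without untreated control replicate 3). Slc7a3, a cationic carrier of the brain, stood at 0.26 to 1.08 CPM over both genotypes. It rose in caNrf2 wall, in 3 of 8 such fits (adjusted p = 0.146 without DSS caNrf2 replicate 1). In controls Slc7a3 passed the filter only through the DSS group, and nothing is read from that call. Macrophage markers, given beside Slc7a2, summed to 51.8 to 113 CPM untreated and 128 to 387 after DSS, and their part in the result was not tested.

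Slc6a12, the betaine and GABA carrier BGT1, had the lowest fitted log2 change of the transporters tested in caNrf2 wall. In controls it passed the filter only through the untreated group, so only its levels are given there. It had 3.04, 1.13, 2.17 and 3.3 CPM in untreated and 0.156, 0.23, 0.342 and 0.263 in DSS-treated control wall. In caNrf2 wall it had 2.65, 2.39, 2.08 and 1.45 CPM untreated and 0.368, 0.268, 0.432 and 0.407 after DSS (log2 fold change -2.49, SE 0.35, adjusted p = 0.000122). No DSS library reached an untreated one in either genotype. The serotonin carrier Slc6a4 fell in caNrf2 wall, from 48.9, 60.3, 53.4 and 46.5 to 6.23, 22.9, 26.2 and 18.9 CPM (log2 fold change -1.48, SE 0.31, adjusted p = 0.00185), and had -0.70 in controls (adjusted p = 0.0791). The GABA carrier Slc6a11 fell in caNrf2 wall, from 1.28, 1.13, 1.56 and 1.09 to 0.69, 0.368, 0.483 and 0.325 CPM (log2 fold change -1.37, SE 0.35, adjusted p = 0.00573).

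Slc6a17 and Slc6a15, known from neurons, rose in both genotypes, and the neuronal Slc6a2 stood higher after DSS. Slc6a17 had 17.1, 25.5, 14.5 and 19.9 CPM in untreated and 38.9, 33.5, 60.9 and 25.6 in DSS-treated control wall (log2 fold change 1.13, SE 0.26, adjusted p = 0.00297). In caNrf2 wall it had 20.6, 14.3, 20.2 and 12.4 CPM untreated and 40.7, 40.7, 29.8 and 41.9 after DSS (log2 fold change 1.22, SE 0.26, adjusted p = 0.00179). The lowest DSS library lay above the highest untreated one in each genotype. Slc6a2, the noradrenaline carrier, had 0, 0, 0.208 and 0.187 CPM untreated and 0.751, 0.551, 1.27 and 1.93 after DSS in controls. Slc6a2 in caNrf2 wall had 0.189, 0.174, 0.163 and 0.101 CPM untreated and 3.03, 1.17, 0.941 and 0.366 after DSS. It passed the filter only through the DSS groups. Slc6a15 rose by 1.03 in controls and 1.24 in caNrf2 wall, with the call in controls lost without DSS control replicate 3 (0.74, adjusted p = 0.0683) or untreated control replicate 3 (adjusted p = 0.0621). Summed neuron and glia markers were 57.7, 96.9, 78.1 and 42.0 CPM in untreated and 90.6, 132, 171 and 148 in DSS-treated control wall, and 75.5, 56.7, 67.5 and 35.7 untreated and 166, 118, 69.3 and 179 after DSS in caNrf2 wall. Their part in the levels of Slc6a17, Slc6a2 and Slc6a15 was not tested.

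The Slc36 family carrier Slc36a4 rose in both genotypes. It had 3.22, 4.13, 3.61 and 4.61 CPM in untreated and 5.51, 6.93, 5.03 and 8.01 in DSS-treated control wall (log2 fold change 0.80, SE 0.21, adjusted p = 0.00844). In caNrf2 wall it had 2.56, 2.74, 2.67 and 2.54 CPM untreated and 9.45, 8.04, 5.83 and 5.90 after DSS (log2 fold change 1.504, SE 0.22, adjusted p = 0.000155), with no overlap in either. Slc36a2 had 1.28, 1.12, 0.944 and 0.252 CPM in untreated and 1.95, 2.95, 2.44 and 2.97 in DSS-treated caNrf2 wall, and a log2 change of -0.10 in controls. In the Slc38 family Slc38a1 rose in caNrf2 wall, from 63.3, 78.6, 73.4 and 92.0 to 135, 102, 137 and 117 CPM (log2 fold change 0.69, SE 0.15, adjusted p = 0.00178), and had 0.17 in controls (adjusted p = 0.367). Slc38a4, an amino acid carrier best known from liver, rose in both (1.58 and 1.16), in caNrf2 wall in 4 of 8 fits that left out 1 library (adjusted p = 0.0802 without DSS caNrf2 replicate 1). Slc38a7, Slc38a9 and Slc38a11 rose in controls by 0.43, 0.61 and 1.18, but in 6, 2 and 1 of 8 such fits (adjusted p = 0.11 and 0.137 without untreated control replicate 3 for Slc38a7 and Slc38a9, and 0.112 without DSS control replicate 2 for Slc38a11).

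The facilitator Slc43a2, a carrier of large neutral amino acids, had 16.01, 13.1, 15.2 and 18.4 CPM in untreated and 22.3, 34.6, 32.9 and 45.0 in DSS-treated control wall. It rose with no overlap (log2 fold change 1.19, SE 0.21, adjusted p = 0.000718), and in caNrf2 wall the change missed the threshold (log2 fold change 0.50, SE 0.21, adjusted p = 0.0673). Slc43a3 rose in both, from 26.0, 29.3, 28.3 and 18.3 to 34.0, 48.7, 40.1 and 62.8 CPM in controls (log2 fold change 0.96, SE 0.24, adjusted p = 0.00511) and with 1.06 in caNrf2 wall (adjusted p = 0.00262). Summed endothelial markers, given beside Slc43a3, were 86.3 to 123 CPM untreated and 221 to 296 after DSS, and their part in the result was not tested. Slc6a14, Slc6a8 and Slc38a2, among the highest transporters of the wall, were not called, with log2 changes of -0.05, 0.38 and 0.02 in controls.

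**Figure D5:**
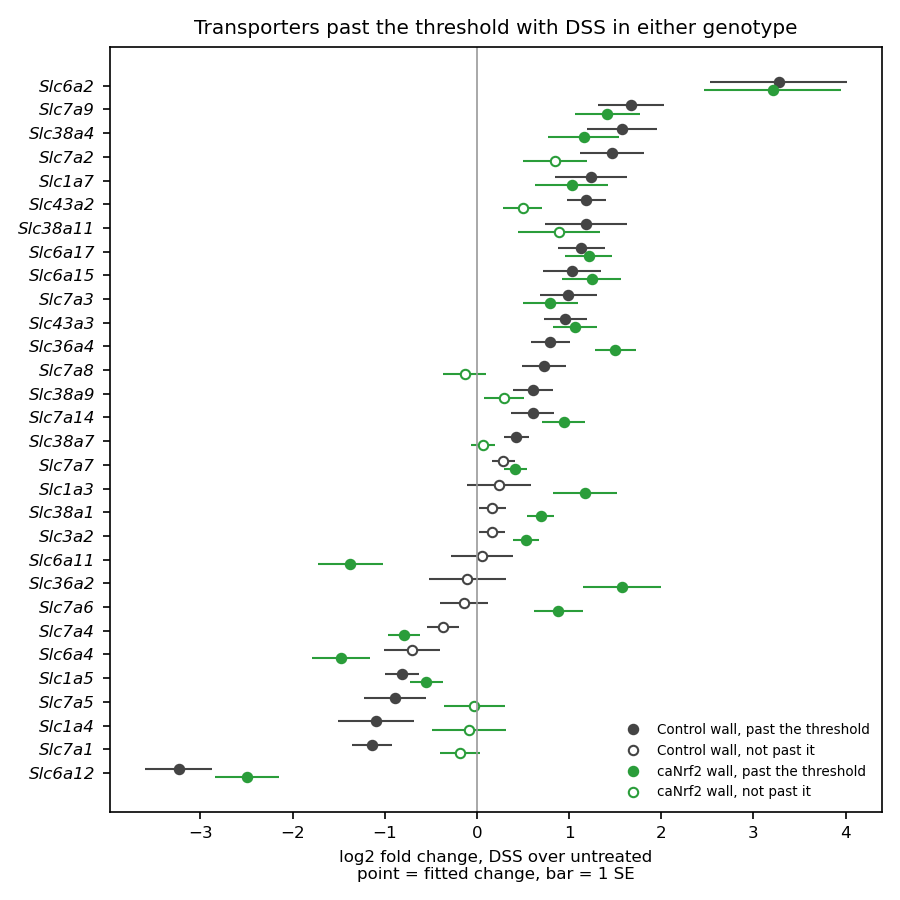
Log2 fold change with DSS in control and caNrf2 colon wall with 1 SE, for transporters past the threshold in either genotype. Slc6a2 and Slc6a12 lie at the ends in both, of which Slc6a2 in both genotypes and Slc6a12 in controls passed the filter on low counts in 1 of the groups compared alone, and filled points passed an adjusted p of 0.05.

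The effect of DSS was not shown to differ between genotypes for any transporter. DESeq2 and limma-voom called 0 transporters for this difference, against 0.249% and 0.703% of all genes. In the edgeR test of the difference itself 0 of 50 passed, as did 0% of all genes, and 9 had an unadjusted p below 0.05 against 7.96% of all genes. The smallest was that of Slc7a1 (difference of log2 changes 0.95, SE 0.30, unadjusted p = 0.00584, adjusted p = 0.47), followed by Slc6a11 (-1.43, adjusted p = 0.475), Slc36a2 (1.68, adjusted p = 0.495), Slc7a6 (1.03, adjusted p = 0.514) and Slc7a8 (-0.86, adjusted p = 0.549). The transgene effect was not shown to differ between epithelial cells and untreated wall either. By edgeR 0 of 42 passed, as did 0% of all genes, and 6 had an unadjusted p below 0.05 against 7.98% of all genes. DESeq2 called 0, against 0.438% of all genes, and limma-voom 3, or 7.14% against 5.49%. Both differences gave 0 transporters without the library labelled untreated caNrf2 wall replicate 2 as well. Slc6a11 and Slc36a2, each with an epithelial group at 0, were among the 6, as were Slc36a1 (difference -0.77, adjusted p = 0.466), Slc43a2 (-0.66, adjusted p = 0.529), Slc7a1 (0.97, adjusted p = 0.532) and Slc7a5 (1.26, adjusted p = 0.575).

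Other genes of amino acid handling were read from lists chosen by role. Of 19 tested genes of the ATF4 response to amino acid shortage, 11 were higher in control epithelial cells than in wall and 0 lower, and 16 and 0 in caNrf2 mice, with medians of 1.12 and 1.48. The shares called were 57.9% and 84.2%, against 38.6% and 43.5% of all genes. Asns, asparagine synthetase, had 1.67 in controls (adjusted p = 5.17e-05) and Pycr1, an enzyme of proline synthesis, 3.37 (adjusted p = 1.39e-06). With DSS in controls 2 of the 19 rose and 5 fell, or 36.8% against 39.2% of all genes, among them Phgdh, the first enzyme of serine synthesis (log2 fold change -1.64, SE 0.28, adjusted p = 0.000545), and with caNrf2 in epithelial cells 0 passed and the median was 0.42 against 0 over all genes. Of 18 tested enzymes of arginine, glutamine, tryptophan and branched-chain amino acids, 2 rose and 6 fell with DSS in controls, which is 44.4% and near the 39.2% of all genes, led by Nos2, the inducible nitric oxide synthase that uses arginine (3.59, adjusted p = 0.000109), and by the urea cycle enzyme Otc (-3.97, adjusted p = 0.000968). Of 29 genes of lysosomal amino acid sensing and mTORC1, 5 rose and 3 fell, or 27.6%, below that share of all genes, with Rragd, a GTPase of that pathway, at 1.06 (adjusted p = 0.00431).

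Of 17 tested amino acid and peptide carriers of other families, 3 rose and 4 fell with DSS in controls, or 41.2% against 39.2% of all genes. The peptide carrier Slc15a1 was lower in control epithelial cells than in wall (-4.62, adjusted p = 1.07e-05), and the lysosomal carrier Slc15a3 rose with DSS (1.59, adjusted p = 0.00525). Among the transporters themselves, Slc6a19, an apical neutral amino acid carrier of gut and kidney, was at 0.596 to 0.964 CPM in untreated control wall and was not called in the comparisons it was tested in. It did not pass the filter in the fit of the epithelial libraries.

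In the GENCODE vM21 annotation of GRCm38, 5 of the 58 transporters share exonic bases with a protein-coding gene on the opposite strand, so that reads there cannot be told apart unless strand was used in counting, which the sources at hand do not state. Slc3a1 shares 26.5% of its exonic bases with Prepl, Slc6a9 38.8% with Ccdc24, Slc1a1 32.0% with 4430402I18Rik, Slc7a10 11.2% with Lrp3 and Slc7a7 8.8% with Oxa1l. Ccdc24 stood at 0 to 1.77 CPM in the 24 libraries and 4430402I18Rik at 0 to 1.94. Prepl stood at 41.2 to 49.3 CPM in untreated control wall and 45.0 to 54.6 in control epithelial cells, above Slc3a1 in that wall and in control epithelial cells other than replicate 3. Lrp3 stood at 4.81 to 7.62 CPM in untreated and 10.17 to 19.12 in DSS-treated wall, above Slc7a10 at 0.03 to 1.93 in wall, and was higher after DSS. Oxa1l stood at 72.6 to 106.2 CPM in untreated and 43.3 to 73.3 in DSS-treated wall, so its level was lower after DSS, and Slc7a7 in the wall stood at 29.8 to 57.9 CPM. The values of Slc3a1, Slc6a9, Slc1a1, Slc7a10 and Slc7a7 are uncertain to that extent.

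Of the 58 transporters, 36 were tested in every comparison and 8 in none, because of low counts. The 8 were Slc36a3, Slc38a5, Slc38a8, Slc6a3, Slc6a5, Slc7a12, Slc7a13 and Slc7a15. The dopamine carrier Slc6a3 and the neuronal glycine carrier Slc6a5 are among them. Slc7a12, the kidney light chain Asc2, had no count in any library. A low or missing count says only that the gene was not detectable at the depth of that library.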

How the data were processed

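The 24 libraries were grouped by genotype, tissue and treatment from their labels, 4 in each of 6 groups. The deposited tables list 30383 RefSeq transcripts per library, and per the file headers they give for each an estimated count, TPM, FPKM and a width in bases. RSEM 1.2.11, FastQC and mm10 are named in the submitters' processing notes, with no role given. The deposited estimated counts, TPM and FPKM were summed over transcripts per gene, and the summed counts were rounded to whole numbers for the tests. FPKM served only for a check of the order of levels, and the deposited width, another transcript value, was not used. CPM printed here is scaled by TMM factors over all 24 libraries. Tests were edgeR 4.0.16 quasi-likelihood fits in R 4.3.3 with TMM scaling, the filter on low counts of that package and Benjamini-Hochberg adjustment over all genes tested, called at an adjusted p below 0.05. The 8 epithelial, the 16 wall and the 8 epithelial with the 8 untreated wall libraries were each fitted together, over 12941, 16074 and 15073 genes, and 36, 50 and 42 members. The fits were tested on simulated data with wide changes placed in genes well above low counts. That does not cover the smaller changes or the low counts of many transporters. The labels do not say whether epithelial and wall samples share animals, so tissues were compared as separate samples. The series text states 3 replicates per condition and 4 were used. No test was run across the lists. DESeq2 1.42.0, limma 3.58.1 with voom and quality weights, other scaling and filters, a replicate block and left-out libraries were the alternatives. The rule for named genes took, per comparison, the members past the threshold, up to 10 in each direction by smallest p, or the 5 with the smallest unadjusted p where fewer than 3 passed, then both heavy chains, the member of highest TPM in each functional class and the 5 of highest TPM in each tissue, with up to 4 genes per other list. Members named for groups that did not overlap, for antisense neighbours or for values in single libraries were chosen after their values were seen. Members, lists and rules were chosen with earlier results of these data known. Precision follows from 4 libraries a group and from the depths given. Some genes of the lists chosen by role are not reported here.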

Additional observations from a re-analysis of the deposited data

Results flagged for a closer look

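In 24 of 227 sets of 1 transporter in 1 group of 4 libraries, a single library stood far from the other 3, by a gap that was most of the range of the group. Chance alone marks about 1 in 20 such sets, and libraries recur among them. No cause was tested, and values are CPM.

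Control epithelial replicate 3 was high in Slc6a14 at 557.87 against 114 to 137 in the other 3 libraries, in Slc3a1 at 45.84 against 5.65 to 10.1 and in Slc6a8 at 217.48 against 86.4 to 95.7. It was low in Slc1a3 at 0.89 against 4.92 to 5.07 and in Slc43a2 at 16.51 against 19.4 to 19.9. The caNrf2 epithelial replicate 1 was high in Slc6a14 at 435.46 against 31.5 to 100.03 and in Slc6a8 at 223.53 against 84.3 to 107.74. It was low in Slc38a9 at 11.25 against 33.3 to 37.1 and in Slc43a1 at 5.52 against 13.3 to 14.02. Control epithelial replicate 2 was high in the GABA carrier Slc6a11 at 0.81 against 0 to 0.13, and caNrf2 epithelial replicate 4 in Slc43a3 at 13.08 against 0.21 to 1.72.

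Untreated control wall replicate 2 was high in Slc1a7 at 0.63 against 0.26 to 0.31, in Slc43a1 at 6.71 against 1.88 to 2.67 and in Slc6a15 at 2.04 against 1.28 to 1.38. The same library was high in Slc6a6 at 197.07 against 121 to 125 and in Slc7a6 at 22.5 against 10.4 to 11.8. Untreated caNrf2 wall replicate 3 was high in Slc36a1 at 407.78 against 257 to 276, and DSS control wall replicate 1 in Slc1a1 at 96.19 against 44.8 to 52.5.

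In DSS-treated caNrf2 wall, replicate 4 was high in Slc1a4 at 35.25 against 15.8 to 18.6, in Slc3a1 at 5.61 against 0.8 to 1.61 and in Slc3a2 at 153.63 against 114.84 to 120.09. Replicate 1 was low in Slc38a10 at 113.35 against 125 to 126 and in Slc6a9 at 25.47 against 33.3 to 34.2, and replicate 3 was low in Slc6a17 at 29.84 against 40.7 to 41.9.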

How the results depend on the processing

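No direction reversed among the counts and the named transporters recomputed under each alternative. The transgene gave 0 transporters in epithelial cells as reported, 1 with DESeq2, 4 with limma-voom and quality weights and 2 without both epithelial libraries that stand apart, while the genes called over the whole table went from 0 to 215 (1.66%), 1292 (9.98%) and 835 (6.43%), against 2.78%, 11.1% and 5.41% of the transporters tested. In untreated wall it gave 0 as reported, 11 with limma-voom and 1 without the wall libraries of the other file number, with 36, 2491 (15.5%) and 404 (2.53%) of all genes, against 22% and 2.04% of the transporters in the last pair. For the difference of the transgene effect between tissues, limma-voom called 3 (7.14%) against 0, and 827 (5.49%) of all genes. The cause of these shifts was not tested. Leaving out each library in turn gave 0 transporters throughout for the transgene in epithelial cells, in DSS-treated wall and for both differences, and 0 to 1 in untreated wall. The 1 there was 1.96% against 1.99% of all genes. For DSS in controls it gave 14 to 21, lowest without DSS control replicate 4, or 28% to 41.2% against 32.3% and 40% of all genes in these fits. In caNrf2 wall it gave 16 to 24, or 32% to 47.1% against 34.9% and 44.3%. Epithelial cells against wall gave 21 to 25 in controls, or 48.8% to 58.1% against 32% and 41.9%. In caNrf2 mice they gave 24 to 29, or 57.1% to 67.4% against 39.3% and 46.7%. The calls that held in every alternative were 11 of 21 and 14 of 21 for DSS and 20 of 24 and 22 of 27 between tissues. Of the 58 transporters, 36 passed the filter on low counts in the epithelial libraries and 50 in the wall, and the reason was not tested.

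With the replicate number as a block, the transgene gave 0 transporters in epithelial cells, untreated wall and DSS-treated wall, against 0%, 0.0435% and 0% of all genes. DSS gave 16 in controls, or 32% against 34.5% of all genes, and 19 in caNrf2 wall, or 38% against 37.5%. Epithelial cells against wall gave 23 and 26, or 54.8% against 36.1% and 61.9% against 41.2%. Both differences gave 0 and 0, as over all genes. Deviations of libraries of the same number correlated above 0.1 in 1 of 4, 3 of 24 and 4 of 24 pairs in the 3 fits. Such correlations cannot show whether libraries of the same number are paired, and the main tests used no block.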

Other observations

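Genes of amino acid use outside the transporters were also compared in caNrf2 mice. With DSS in caNrf2 wall, 4 of 18 tested enzymes of arginine, glutamine, tryptophan and branched-chain amino acids rose and 6 fell, or 55.6% against 41.2% of all genes, with Nos2 at 3.63 (adjusted p = 8.26e-05) and the urea cycle enzyme Cps1 at -3.44 (adjusted p = 0.000867) on the log2 scale by edgeR. Of 29 genes of lysosomal sensing and mTORC1, 5 rose and 4 fell, and of 19 genes of the ATF4 response 1 rose and 5 fell. These shares of 31% and 31.6% are below that of all genes. The epithelial cells of caNrf2 mice had higher levels than their untreated wall for Asns (1.89, adjusted p = 1.62e-05), for Pycr1 (3.05, adjusted p = 3.36e-06) and for Bcat2, the first enzyme of branched-chain amino acid breakdown (1.38, adjusted p = 4.27e-05).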
